A study of Mus musculus with 18 samples.

Results

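The 36 genes described here carry the insulin and insulin-like growth factor signal through PI3K and AKT to mTOR, or report the state of the cell's energy and glucose supply. They were set by name: the ligand Igf1, the receptors Insr and Igf1r, the receptor substrates, PI3K and AKT, the mTOR and TSC genes, AMPK, 2 glucose transporters, hexokinase 1, and a group of feedback and output genes. Each gene was represented by the probe of highest mean log2 signal among its probes with a detection p under 0.05 on at least 3 arrays, and both probes of Tsc2 are given. In all, 31 of the 36 genes were measured, among the 10517 named genes and 15476 probes tested. The genes Rps6kb1 and Prkaa1 had no probe of that name and were not analysed here. Insr, Rptor and Foxo3 each had a probe that was detected on 0 of 18 arrays. Their mean signals per group, 96.5 to 120 for Insr, 77.1 to 101 for Rptor and 75.0 to 89.4 for Foxo3, were not well above background, so the insulin receptor itself gave no comparison. Of the 31 measured genes, 27 were detected on all 18 arrays. The other 4 were dim: Akt2 was detected on 3 arrays, Akt1 on 7, Tsc1 on 9 and Irs1 on 15.

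The samples were total RNA from hypothalamus, cortex and hippocampus of male mice on the C57BL/6J background, 4 to 5 months old and fed standard chow. The T1R3KO mice lack T1R3, the taste receptor subunit encoded by Tas1r3, and their line had been crossed with WT C57BL/6J mice for at least 4 generations. WT C57BL/6J mice were the controls. Each region was measured on 3 T1R3KO and 3 WT Illumina bead arrays, from 18 animals in all, so that each array is 1 animal's tissue and each group has n = 3. The labels do not say whether the WT mice were littermates of the T1R3KO mice.

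Insulin and IGF-1 bind receptor tyrosine kinases that phosphorylate the substrates IRS1 and IRS2, which recruit PI3K. PI3K makes a membrane lipid on which PDPK1 activates AKT. AKT restrains the TSC1-TSC2 complex, the brake on the small GTPase RHEB, and RHEB-GTP activates the kinase mTOR. When ATP runs low, STK11 (LKB1) activates AMPK, which phosphorylates TSC2 and thereby holds mTOR back. In the hypothalamus, insulin signalling, AMPK and mTOR take part in the control of feeding, and T1R3 is a subunit of the receptors for sweet and umami taste that also occurs outside the tongue.

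Between 52.1% and 58.1% of the probes were detected per array, at a mean signal of 788 to 1388. The Tas1r3 probe was detected on 1 of 18 arrays, with signals of 112.3 to 163.9, and gave no check of the genotype labels. Region markers matched the region labels: the mean log2 signal of the hypothalamus list was 12.72 to 12.90 on hypothalamus arrays, that of the cortex list 9.73 to 10.35 on cortex arrays, and that of the hippocampus list 10.52 to 10.81 on hippocampus arrays. Several arrays stood apart within their region. On the cortex arrays, a list of 10 striatal genes, of which 7 were measured and 3 were not detected, had mean log2 signals of 11.01, 8.81 and 10.28 in T1R3KO replicates 1 to 3, and of 9.07, 10.13 and 9.31 in WT replicates 1 to 3. A hypothalamic list, with 9 of 10 genes measured, was highest on the same 3 arrays, at 8.38, 7.12 and 7.75 in T1R3KO cortex, against 7.05, 7.67 and 7.13 in WT cortex. T1R3KO cortex replicates 1 and 3 and WT cortex replicate 2 were thus high in markers of neighbouring tissue. In cortex T1R3KO replicate 2 alone is left against WT replicates 1 and 3 when they are dropped. The genes called between the genotypes in cortex are therefore given as fold changes only without these 3 arrays. Of the genes called between WT regions, 14 of 16 between hypothalamus and cortex and 5 of 7 between cortex and hippocampus kept their calls without them (lost were Tsc1 and Slc2a1, and Akt2 and Slc2a3), and all kept their sign. WT hippocampus replicate 1 had a choroid plexus marker mean of 8.10, against 11.75 to 12.29 on the other 5 hippocampus arrays. No gene called between the genotypes in hippocampus or over the regions lost its call without that array.

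The question asked of each region was whether the pathway's transcripts differ between mice without and with T1R3. Few did. In T1R3KO cortex 2 of the 31 genes were lower, the PI3K catalytic subunit Pik3ca and the AMPK catalytic subunit Prkaa2, and none was higher, where 2.69% of all probes were called in cortex (1.15% higher and 1.54% lower). In T1R3KO hippocampus 1 gene was lower, the mTOR inhibitor Tsc2, against 1.25% of all probes (0.678% higher and 0.575% lower). In hypothalamus 0 genes passed limma's adjusted threshold of 0.05, with 2 at an unadjusted p under 0.05 (10.4% of all probes were), against 1.6% of all probes (0.678% higher and 0.918% lower). Over the mean of the regions, Tsc2 was lower and the AMPK regulatory subunit Prkab1 was higher in T1R3KO, 2 of 31 genes against 6.02% of all probes (2.96% higher and 3.06% lower). Unadjusted p-values were under 0.05 for 8 of the 31 genes in cortex (25.8%), 4 in hippocampus (12.9%) and 6 over the mean of the regions (19.4%), against 15.2% and 10.2% of all probes in cortex and hippocampus and 2936 of 15476 over the mean of the regions.

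These counts rest on single genes, and the set as a whole lay near 0. The median log2 fold change of the 31 genes, T1R3KO over WT, was 0.045 in hypothalamus, 0.042 in cortex, 0.031 in hippocampus and 0.046 over the mean of the regions. The medians of all probes were 0.017, 0.011, 0.006 and 0.007 in the same order. In hypothalamus 22 of the 31 differences were positive, in cortex 18 and in hippocampus 17. Of all 15476 probes, 8425, 8121 and 7989 were positive in the same order. The arrays of the genotypes did not overlap for 3 of 31 genes in hypothalamus, 7 in cortex and 5 in hippocampus, against 19.1%, 16.9% and 15.5% of all probes. For 2 genes, Tsc2 and Prkab1, they did not overlap and kept 1 direction in all 3 regions, which held for 2.35% of all probes. In bulk tissue, fewer cells of a type and less RNA per cell cannot be told apart, and this holds for each difference that follows.

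**Figure D1:**
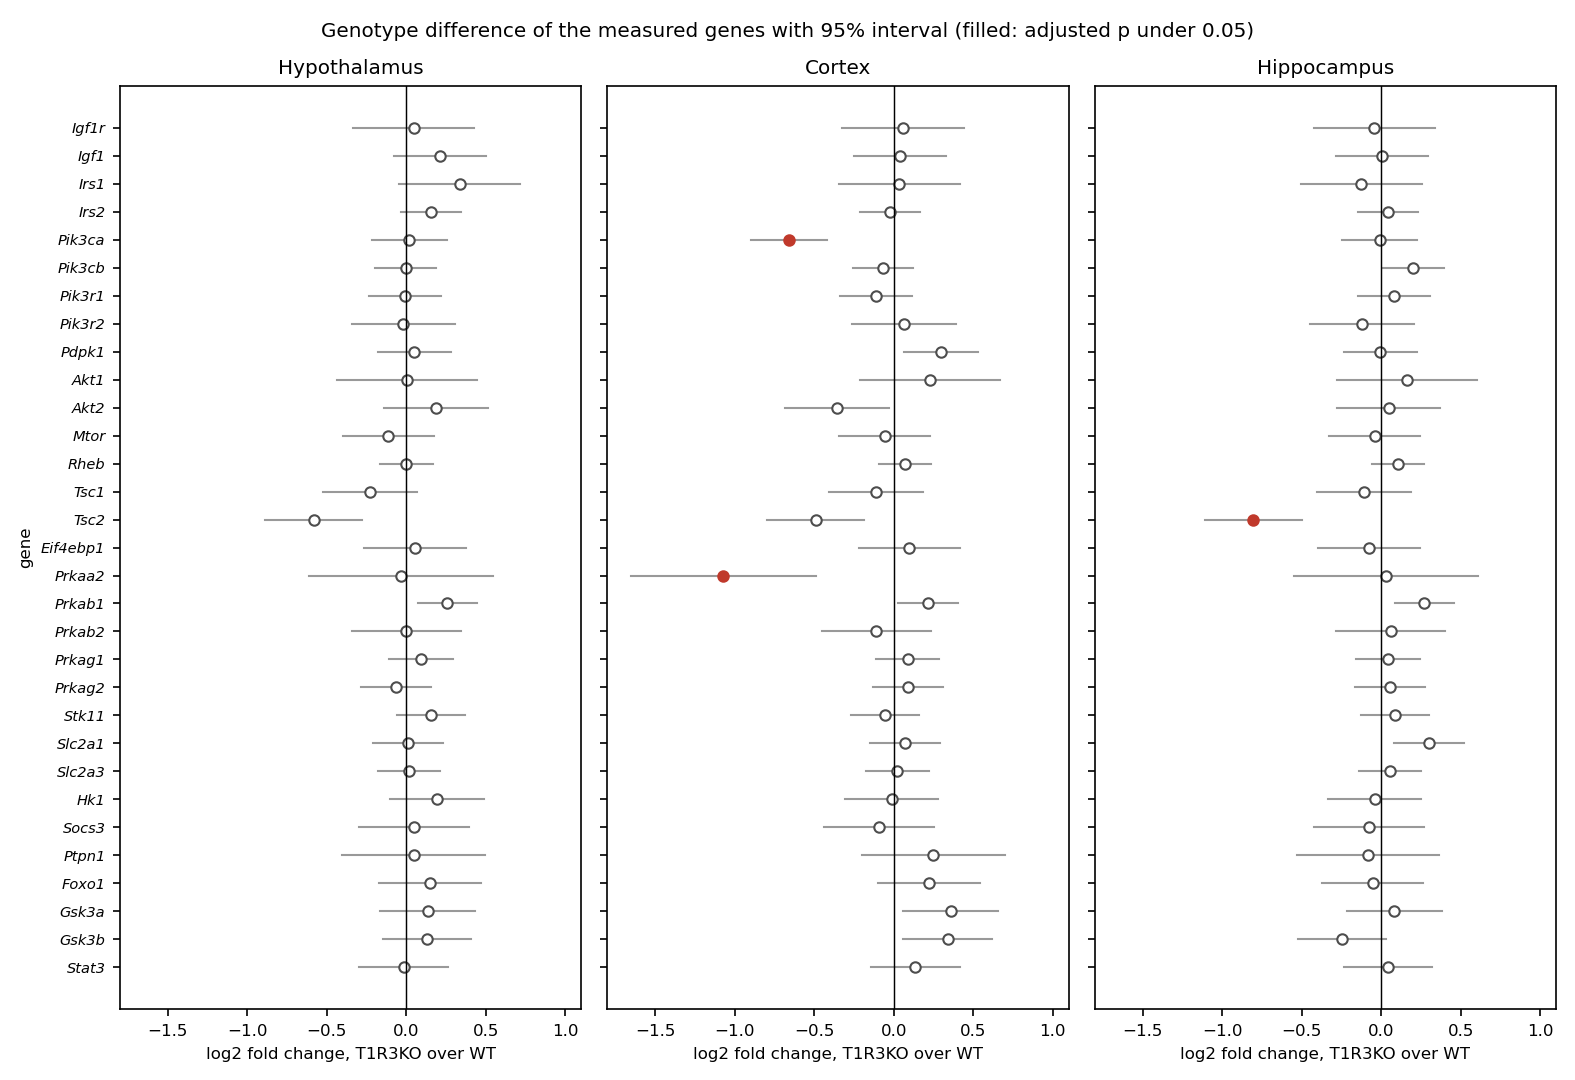
Log2 fold change, T1R3KO over WT, of each of the 31 measured genes (rows, in pathway order) in hypothalamus, cortex and hippocampus, with the 95% interval from limma (n = 3 arrays per group). Filled red points passed an adjusted p of 0.05: Pik3ca and Prkaa2 in cortex and Tsc2 in hippocampus. The points of Tsc2 lie left of 0 in all 3 regions and those of Prkab1 lie right of it, while most other intervals span 0.

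The promoters of the 4 genes called between the genotypes are shown first, since these are the genes whose transcript levels the comparison turns on. The windows are from RefSeq on GRCm38.p6 and run from 250 bases before to 50 bases after the annotated start, 5′ to 3′ on the strand of the gene, with lower-case bases and motif matches in capitals. Those of Tsc2 lie at chr17:24632578-24632877 (minus strand), of Prkab1 at chr5:116024379-116024678 (minus), of Pik3ca at chr3:32396815-32397114 (plus) and of Prkaa2 at chr4:105109849-105110148 (minus).
Tsc2: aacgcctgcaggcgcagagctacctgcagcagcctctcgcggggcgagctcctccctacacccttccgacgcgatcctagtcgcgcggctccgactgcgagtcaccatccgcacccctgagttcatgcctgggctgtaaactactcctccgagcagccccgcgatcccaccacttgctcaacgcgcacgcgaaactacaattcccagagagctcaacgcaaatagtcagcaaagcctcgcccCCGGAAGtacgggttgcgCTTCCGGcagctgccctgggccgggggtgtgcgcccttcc
Prkab1: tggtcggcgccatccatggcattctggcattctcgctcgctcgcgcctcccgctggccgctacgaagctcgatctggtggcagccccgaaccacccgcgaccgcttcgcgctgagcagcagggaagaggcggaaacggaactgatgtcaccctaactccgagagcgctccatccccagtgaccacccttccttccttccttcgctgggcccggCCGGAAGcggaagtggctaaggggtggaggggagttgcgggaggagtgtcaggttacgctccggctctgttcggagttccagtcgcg
Pik3ca: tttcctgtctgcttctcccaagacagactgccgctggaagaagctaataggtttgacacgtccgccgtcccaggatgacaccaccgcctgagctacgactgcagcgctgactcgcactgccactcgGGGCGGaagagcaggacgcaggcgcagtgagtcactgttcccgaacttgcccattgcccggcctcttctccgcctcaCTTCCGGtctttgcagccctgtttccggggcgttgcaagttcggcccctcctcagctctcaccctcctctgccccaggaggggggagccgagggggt
Prkaa2: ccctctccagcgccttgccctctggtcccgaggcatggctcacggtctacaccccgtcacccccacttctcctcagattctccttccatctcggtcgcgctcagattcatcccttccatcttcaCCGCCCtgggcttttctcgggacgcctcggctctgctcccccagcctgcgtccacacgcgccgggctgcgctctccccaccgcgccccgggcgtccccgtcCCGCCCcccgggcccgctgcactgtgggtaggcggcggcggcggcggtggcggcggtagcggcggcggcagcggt

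The letters searched, on both strands, were GTAAACA (FOXO), TGACGTCA (CRE), CACGTG (E-box), GGGCGG (SP1/KLF), the NRF1 motif and CCGGAAG (ETS), the last added after the sequences had been seen. Matches did not overlap each other in these 4 windows. The Tsc2 window held 2 ETS matches and the Prkab1 window 1, the Pik3ca window held 1 ETS and 1 SP1/KLF match, and the Prkaa2 window held 2 SP1/KLF matches. The Tsc2 window also shares 154 bases with that of Nthl1, a DNA repair gene that starts on the opposite strand. In all, 33 of the 36 genes matched the promoter table, with 42 windows. ETS letters were in 16.7% of those 42, in the windows of Mtor, Pik3ca, Pik3r2, Prkab1, Prkag1, Ptpn1 and Tsc2, and in 8.86% of all 32851 windows. SP1/KLF letters were in 61.9% against 35.7%, with a median GC content of 63.3% in the 42 windows and of 52.7% in all windows. FOXO letters were in 4.76% (Akt1 and Stk11) against 3.65%, and E-box letters in 7.14% (Irs1, Irs2 and Rheb) against 7.15%. CRE letters were in 0 of the 42 windows and in 1.79% of all windows, and NRF1 letters in 0 and in 0.971%. These matches describe the letters and were not tested.

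Tsc2 encodes tuberin, which with the TSC1 protein switches RHEB off. In hypothalamus its probe of higher signal, ILMN_3135566, read 11.43, 11.04 and 11.20 on the T1R3KO arrays, against 11.78, 11.81 and 11.85 on the WT arrays (normalized log2 signal). In cortex the values were 12.01, 11.54 and 11.59 in T1R3KO, against 12.22, 12.13 and 12.25 in WT. In hippocampus they were 11.94, 11.56 and 11.45 in T1R3KO, against 12.49, 12.28 and 12.59 in WT. All 9 T1R3KO arrays lay below the WT arrays of their region, and T1R3KO replicate 1 was the highest of its group in each region. The fall of 0.80 ± 0.14 in hippocampus on the log2 scale (SE, 95% interval -1.11 to -0.50) passed at an adjusted p of 0.00713. In hypothalamus the log2 fold change was -0.58 ± 0.14 (adjusted p = 0.0541), and in cortex it was -0.49 ± 0.14 (adjusted p = 0.0871). These 2 differences missed the threshold, with intervals of -0.89 to -0.28 and -0.79 to -0.19, and passed it in 11 of 26 alternatives in hypothalamus and 3 of 27 in cortex. Without the 3 cortex arrays high in striatal and hypothalamic markers the cortex value was -0.70. That fit kept only T1R3KO cortex replicate 2, the lowest of its group at 11.54. Over the mean of the regions Tsc2 fell by 0.63 ± 0.083 on the log2 scale (95% interval -0.80 to -0.45, adjusted p = 0.000137), lower in 9 of 9 T1R3KO arrays than the WT arrays of their region. Limma's test of a difference between the regions' genotype effects called 0 of the 31 genes, Tsc2 included, against 0.0452% of all probes. In that test 3 of the 31 genes had an unadjusted p under 0.05, as did 1071 of all 15476 probes.

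The second Tsc2 probe, ILMN_1214823, is annotated to another RefSeq transcript of the gene and showed smaller differences. It read 11.07, 11.10 and 11.17 in T1R3KO hypothalamus, against 11.18, 11.23 and 11.20 in WT hypothalamus. In cortex it read 11.81, 11.62 and 11.68 in T1R3KO, against 11.82, 11.76 and 11.84 in WT. In hippocampus it read 11.71, 11.60 and 11.62 in T1R3KO, against 11.90, 11.79 and 12.02 in WT. The genotypes overlapped in cortex and did not overlap in hypothalamus and hippocampus. Its log2 fold changes were -0.09 ± 0.08 (adjusted p = 0.769), -0.10 ± 0.08 (0.581) and -0.26 ± 0.08 (0.169) in hypothalamus, cortex and hippocampus, and -0.15 ± 0.04 over the mean of the regions (0.0609). The genotype effect on the first probe was more negative by 0.492 in hypothalamus, 0.388 in cortex and 0.546 in hippocampus. Because these gaps between the probes were noticed in the values, a permutation test run on them is not used as support. Where each probe lies in the transcript was not analysed here.

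Among the nearest measured genes on chromosome 17, 3 on each side of Tsc2, only Traf7 was called over the mean of the regions, with a log2 fold change of -0.33 ± 0.08 (adjusted p = 0.0219). The value was -0.11 for Pkd1 (adjusted p = 0.615) and -0.03 for Caskin1 (0.837). On the other side it was +0.28 for Nthl1 (0.0931), +0.17 for Slc9a3r2 (0.0658) and +0.09 for Zfp598 (0.671). Nthl1, whose promoter window overlaps that of Tsc2, thus had the opposite sign. Tas1r3 lies on chromosome 4, as do Mtor, Slc2a1 and Prkaa2, with 66, 292 and 376 measured genes between them and Tas1r3.

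Prkab1 encodes the beta 1 subunit of AMPK, the scaffold that joins the catalytic alpha and the nucleotide-binding gamma subunits. In hypothalamus it read 9.28, 9.19 and 9.18 in T1R3KO, against 8.93, 8.95 and 8.99 in WT. In cortex it read 9.45, 9.57 and 9.42 in T1R3KO, against 9.42, 9.25 and 9.13 in WT. In hippocampus it read 9.22, 9.20 and 9.04 in T1R3KO, against 8.92, 8.78 and 8.94 in WT. Every T1R3KO array lay above the WT arrays of its region, in cortex by a margin under the rounding of these values. The log2 fold change was 0.26 ± 0.09 in hypothalamus (adjusted p = 0.221), 0.22 ± 0.09 in cortex (0.247) and 0.27 ± 0.09 in hippocampus (0.206), none of which passed. Over the mean of the regions Prkab1 rose by 0.25 ± 0.050 (95% interval 0.14 to 0.36, adjusted p = 0.0060), higher in 9 of 9 T1R3KO arrays. The difference was between 0.22 and 0.27 in each region and passed only in the contrast that used all 18 arrays.

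**Figure D2:**
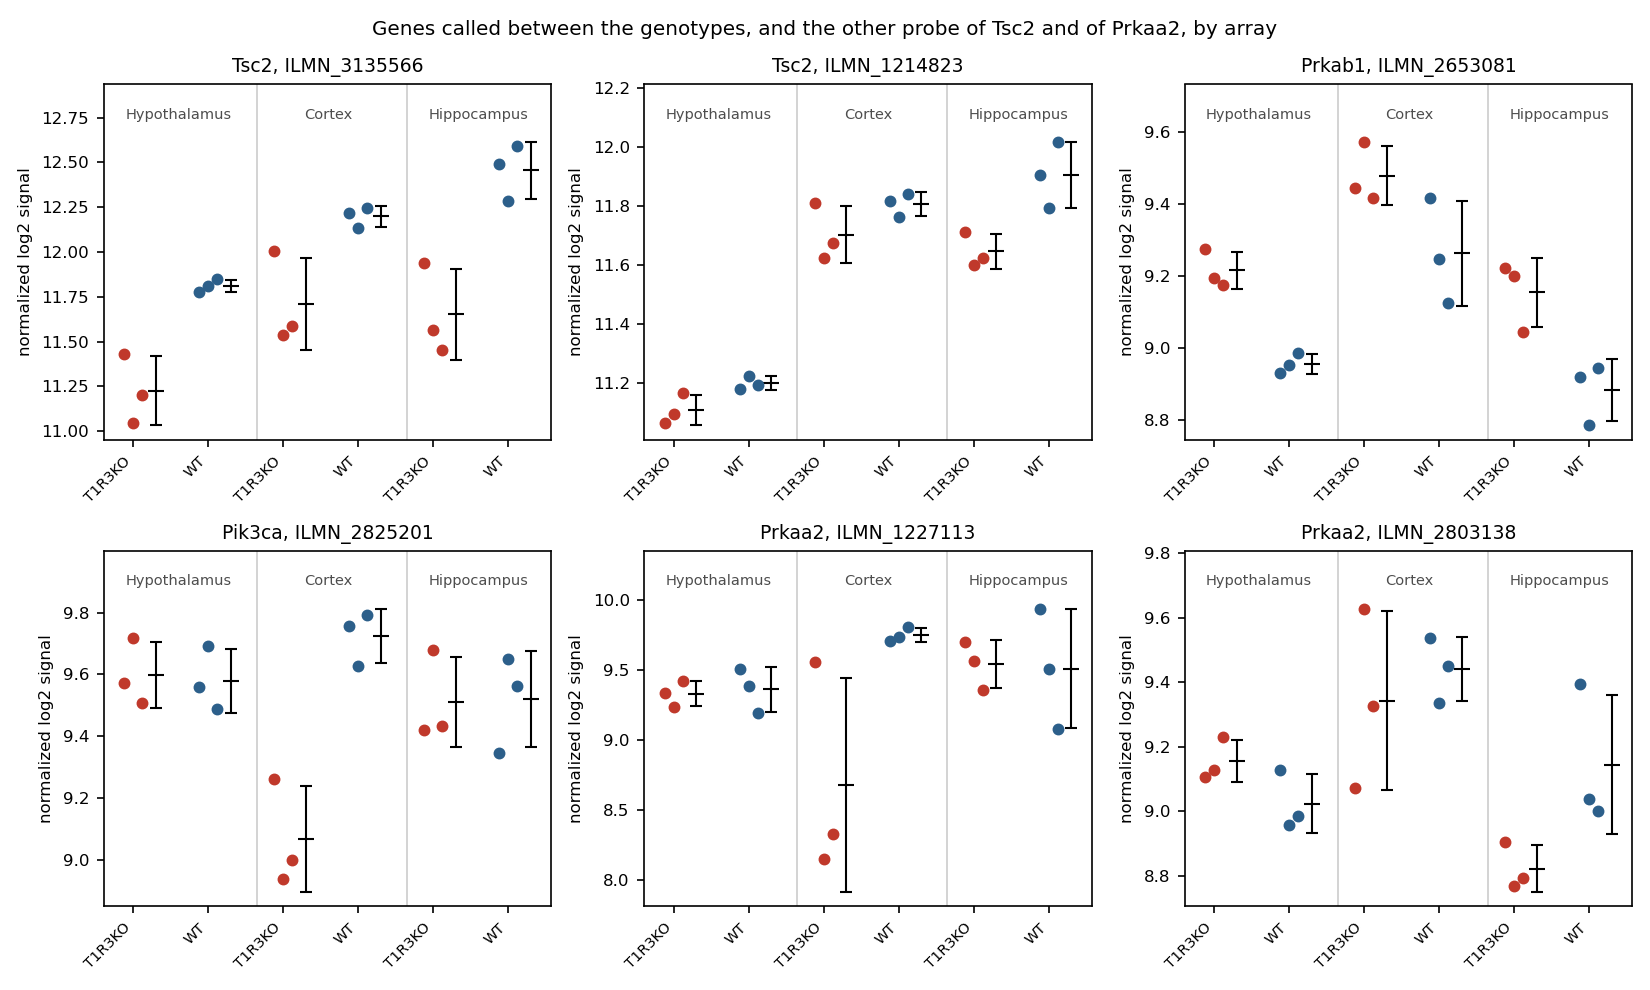
Normalized log2 signal on each array for the 4 genes called between the genotypes, with the second probe of Tsc2 and of Prkaa2, by region, T1R3KO in red and WT in blue, with bars for mean ± SD (n = 3). For the first Tsc2 probe the red points lie below the blue ones in every region and for Prkab1 above them. Pik3ca and the first Prkaa2 probe (ILMN_1227113) separate in cortex and overlap in hypothalamus and hippocampus. The second Prkaa2 probe (ILMN_2803138) overlaps in hypothalamus and cortex and separates in hippocampus.

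Pik3ca encodes p110 alpha, the PI3K catalytic subunit through which most insulin signalling runs. In cortex it read 9.26, 8.94 and 8.9997 in T1R3KO, against 9.76, 9.63 and 9.79 in WT. The groups did not overlap, and Pik3ca fell by 0.66 ± 0.11 on the log2 scale in T1R3KO cortex (95% interval -0.90 to -0.42, adjusted p = 0.00408). In hypothalamus it read 9.57, 9.72 and 9.51 in T1R3KO, against 9.56, 9.69 and 9.49 in WT, a difference of 0.02 (adjusted p = 0.976). In hippocampus it read 9.42, 9.68 and 9.43 in T1R3KO, against 9.35, 9.65 and 9.56 in WT, a difference of -0.01 (0.993). Outside the cortex the genotypes overlapped. The test of a difference between the regions' effects gave Pik3ca the smallest adjusted p of the 31 genes, 0.257, which did not pass. Without the 3 cortex arrays high in striatal and hypothalamic markers, the cortex value was -0.84. That fit kept only T1R3KO cortex replicate 2, the lowest of its group at 8.94.

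Prkaa2 encodes the alpha 2 catalytic subunit of AMPK. In cortex its probe ILMN_1227113 read 9.55, 8.15 and 8.33 in T1R3KO, against 9.70, 9.74 and 9.80 in WT. T1R3KO replicate 1 lay close to the WT arrays and the other 2 well below them. Prkaa2 fell by 1.07 ± 0.27 on the log2 scale in T1R3KO cortex (95% interval -1.65 to -0.49, adjusted p = 0.0484), just inside the threshold. Without T1R3KO cortex replicate 1 the value was -1.51 ± 0.18 (adjusted p = 0.00011). The fit without the 3 cortex arrays high in markers kept only T1R3KO cortex replicate 2, the lowest at 8.15, and there the value was -1.60. Without T1R3KO cortex replicate 2 it was -0.81 (adjusted p = 0.124) and without replicate 3 it was -0.90 (0.211). The call was kept when T1R3KO cortex replicate 1 or WT hippocampus replicate 1 or 3 was left out, and was lost without any other single array of the 18, with adjusted p from 0.0580 to 0.211. In hypothalamus the probe read 9.33, 9.24 and 9.42 in T1R3KO, against 9.50, 9.38 and 9.19 in WT, and in hippocampus 9.70, 9.56 and 9.36 in T1R3KO, against 9.94, 9.51 and 9.08 in WT, with overlap in both regions.

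The second Prkaa2 probe, ILMN_2803138, did not show the cortical fall. It read 9.07, 9.63 and 9.33 in T1R3KO cortex, against 9.54, 9.34 and 9.45 in WT cortex, a difference of -0.10 ± 0.13 (adjusted p = 0.783). The order of the T1R3KO arrays was turned round between the probes: replicate 1 was the highest on the first and the lowest on the second. In hippocampus this second probe gave -0.32 ± 0.13 (adjusted p = 0.371) with no overlap.

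Markers of other cells moved with genotype beside these results. Of 8 oligodendrocyte genes, 7 were measured, and 2 of the 7 were called lower in T1R3KO cortex and 3 over the mean of the regions. Their summed signal was 65741 to 68746 in T1R3KO hypothalamus, against 80011 to 81302 in WT. In cortex it was 61721 to 69641 in T1R3KO, against 72255 to 78997 in WT, and in hippocampus 73382 to 79904 in T1R3KO, against 80744 to 81743 in WT. The summed striatal signal was 5253 to 21977 in T1R3KO cortex, against 6490 to 11467 in WT cortex, and the summed hypothalamic signal 11120 to 18740, against 10120 to 13228. In neither the striatal nor the hypothalamic list was a gene called between the genotypes in cortex, where the list medians were 0.53 and 0.16. The wide spread among the T1R3KO cortex arrays limits that comparison, so the missing calls do not show equal tissue content. The oligodendrocyte genes called in T1R3KO cortex were the myelin genes Mog (-0.76, adjusted p = 0.0194) and Cldn11 (-0.53, 0.0457), joined by Mag over the mean of the regions.

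Other markers were called in T1R3KO cortex as well: the microglial receptor Trem2 (-0.57, adjusted p = 0.0471), the cortical marker Rorb (-0.73, 0.00673) and the hippocampal marker Fibcd1 (+0.61, 0.0142). Each was the only gene of its list called there, among 7 microglial, 6 cortical and 5 hippocampal genes measured. The list medians in cortex were -0.009, -0.25 and 0.14, and 2.69% of all probes were called. Over the mean of the regions Trem2 was lower (-0.55, 0.000579), as were the red cell genes Alas2 (-0.71, 0.00599) and Hba-a1 (-0.51, 0.0478), the endothelial receptor Tek (-0.30, 0.0478) and the hippocampal marker Spink8 (-0.80, 0.00337). Trem2, Tek and Spink8 were each the only gene of their list called over the mean, among 7, 5 and 5 genes measured. The medians of their lists were -0.07, -0.12 and -0.01, and 6.02% of all probes were called. The summed red cell signal, over 2 of 3 genes, was 5223 to 11007 in T1R3KO hypothalamus, against 9729 to 15626 in WT. In cortex it was 5879 to 8940 in T1R3KO, against 9714 to 11284 in WT, and in hippocampus 6270 to 9326 in T1R3KO, against 9171 to 12222 in WT. The summed astrocyte signal, over 7 genes, had 0 called members and was 68453 to 75997 in T1R3KO hypothalamus, against 76546 to 81667 in WT. In cortex it was 54156 to 62533 in T1R3KO, against 59794 to 64695 in WT. In hippocampus it was 61966 to 65304 in T1R3KO, against 66422 to 72208 in WT. Of 6 neuronal genes 5 were measured and 0 were called between the genotypes. No marker of these lists passed in hippocampus alone or in hypothalamus alone. The part of these markers in the differences of Tsc2, Prkab1, Pik3ca and Prkaa2 was not tested.

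Of the receptor-side genes none differed between the genotypes past the threshold. Igf1r, the IGF-1 receptor, had log2 fold changes of 0.05 in hypothalamus, 0.06 in cortex and -0.04 in hippocampus. Its ligand Igf1 had 0.21, 0.04 and 0.01 in the same order, and the substrate Irs2 had 0.15, -0.02 and 0.04. Irs1, detected on 15 arrays, had 0.34, 0.04 and -0.13.

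In the PI3K and AKT arm, Pik3ca was the only gene called. Pik3cb, the p110 beta catalytic subunit, had log2 fold changes of -0.00 in hypothalamus, -0.07 in cortex and 0.20 in hippocampus. The regulatory subunit Pik3r2 had -0.02, 0.07 and -0.12. Pik3r1, which encodes p85 alpha and stabilizes the catalytic subunits, had -0.11 in cortex at its chosen probe. Its dimmer probe ILMN_3040050 had -0.75 ± 0.22 there (adjusted p = 0.0829). The genotypes overlapped there on its bright probe ILMN_3114641, at 12.25, 12.49 and 12.16 in T1R3KO, against 12.56, 12.16 and 12.40 in WT. Pdpk1 had 0.30 in cortex (adjusted p = 0.195) with no overlap between the genotypes at its chosen probe, as held for 16.9% of all probes. Its probe ILMN_2594855 overlapped there, at 10.56, 10.72 and 11.43 in T1R3KO, against 10.62, 10.47 and 10.54 in WT. Pdpk1 lies on chromosome 17 with 14 measured genes between it and Tsc2. Akt1, dim throughout, had 0.23 in cortex. The kinase Akt2 was detected on 0 of 3 T1R3KO cortex arrays, where it averaged 5.84 ± 0.20, and on 2 of 3 WT cortex arrays, where it averaged 6.19 ± 0.19 (SD, n = 3), so no fold is given (adjusted p = 0.276).

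Mtor itself, the kinase at the end of this chain, was not called between the genotypes. It read 9.66, 9.94 and 9.89 in T1R3KO hypothalamus, against 9.75, 9.99 and 10.08 in WT. In cortex it read 10.16, 9.77 and 9.61 in T1R3KO, against 9.86, 10.04 and 9.81 in WT, and in hippocampus 9.78, 9.79 and 9.99 in T1R3KO, against 9.98, 9.90 and 9.81 in WT. The groups overlapped in every region, and the 95% intervals of the log2 fold change were -0.40 to 0.17, -0.34 to 0.23 and -0.33 to 0.25 in that order. Its activator Rheb had differences of 0.00, 0.07 and 0.10, and Eif4ebp1, the translation repressor that mTOR phosphorylates, had 0.06, 0.10 and -0.07. Tsc1, the partner of Tsc2, had -0.23 in hypothalamus, which did not pass. In cortex and hippocampus it was detected on 0 of 3 T1R3KO arrays and on 1 and 2 of 3 WT arrays, and was not called.

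Of the other energy-sensing genes, Stk11 had log2 fold changes of 0.16 in hypothalamus, -0.06 in cortex and 0.09 in hippocampus. The AMPK subunit genes Prkab2, Prkag1 and Prkag2 lay between -0.11 and 0.09 in the 3 regions. Slc2a1, the glucose transporter of the blood-brain barrier and glia, had 0.30 in hippocampus (adjusted p = 0.258) with no overlap between the genotypes. Slc2a3, the neuronal glucose transporter, had 0.02, 0.02 and 0.06, and hexokinase 1 (Hk1) had 0.19, -0.01 and -0.04. Among the feedback and output genes, the kinases Gsk3a and Gsk3b had 0.36 (adjusted p = 0.228) and 0.34 (0.221) in cortex, and Gsk3b had -0.25 in hippocampus (0.57). Foxo1, a transcription factor that AKT keeps out of the nucleus, had 0.15, 0.22 and -0.05. The inhibitors of insulin and leptin signalling Socs3 and Ptpn1 lay between -0.09 and 0.25, and Stat3, which transmits the leptin signal, had -0.02, 0.13 and 0.04. The Stat3 probe ILMN_3096144 read 7.64, 7.29 and 7.60 in T1R3KO hypothalamus, against 7.16, 6.94 and 7.17 in WT, with no overlap. Of all probes 19.1% did not overlap there. The genotypes overlapped on that probe in the other regions, and in hypothalamus on the chosen probe and ILMN_2589790.

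The intervals bound how large an unseen change in probe signal could be. The dim genes Akt1, Akt2, Tsc1 and Irs1 are counted too, and near background a narrow interval does not bound a change in the transcript. For 25 of the 31 genes in hypothalamus, 21 in cortex and 24 in hippocampus, the 95% interval lay inside ±0.5 on the log2 scale (1.41-fold either way), as it did for 29 genes over the mean of the regions. An interval reached 0.289 to either side of its estimate at the median within a region (0.164 to 0.579) and 0.167 over the mean of the regions.

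The regions were compared within each genotype. Within WT, 17 of the 31 genes differed between regions by limma's F test, against 54.7% of all probes. Of these 17, 10 were highest in cortex (Pik3cb, Pik3r2, Akt2, Eif4ebp1, Prkab1, Prkab2, Stk11, Slc2a3, Socs3 and Gsk3a), 4 in hippocampus (Irs2, Tsc2, Ptpn1 and Foxo1) and 3 in hypothalamus (Tsc1, Slc2a1 and Stat3). The hypothalamus was the lowest region for 10 of them. Between WT hypothalamus and WT cortex 16 genes were called, 4 higher (Stat3, Tsc1, Irs2 and Slc2a1) and 12 lower in hypothalamus, against 49.5% of all probes (25.6% higher and 23.9% lower). The median log2 fold change of the 31 genes was -0.254 there, against 0.011 for all probes. Between hypothalamus and hippocampus 11 were called, 3 higher and 8 lower, against 42.0% of all probes (22.1% and 19.9%). Akt2 is among those 8, although it was detected on no array of either group. The median log2 fold change was -0.148, against 0.016 for all probes. Between cortex and hippocampus 7 were called, 5 higher in cortex (Socs3, Eif4ebp1, Akt2, Prkab1 and Slc2a3) and 2 lower (Foxo1 and Irs2), against 18.6% (9.68% and 8.88%). The called shares of the 31 genes in these 3 pairs, 51.6%, 35.5% and 22.6%, lay near those of all probes. Genes with no call between WT regions included Mtor (F test adjusted p = 0.95), Igf1r, Pik3ca and Hk1.

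**Figure D3:**
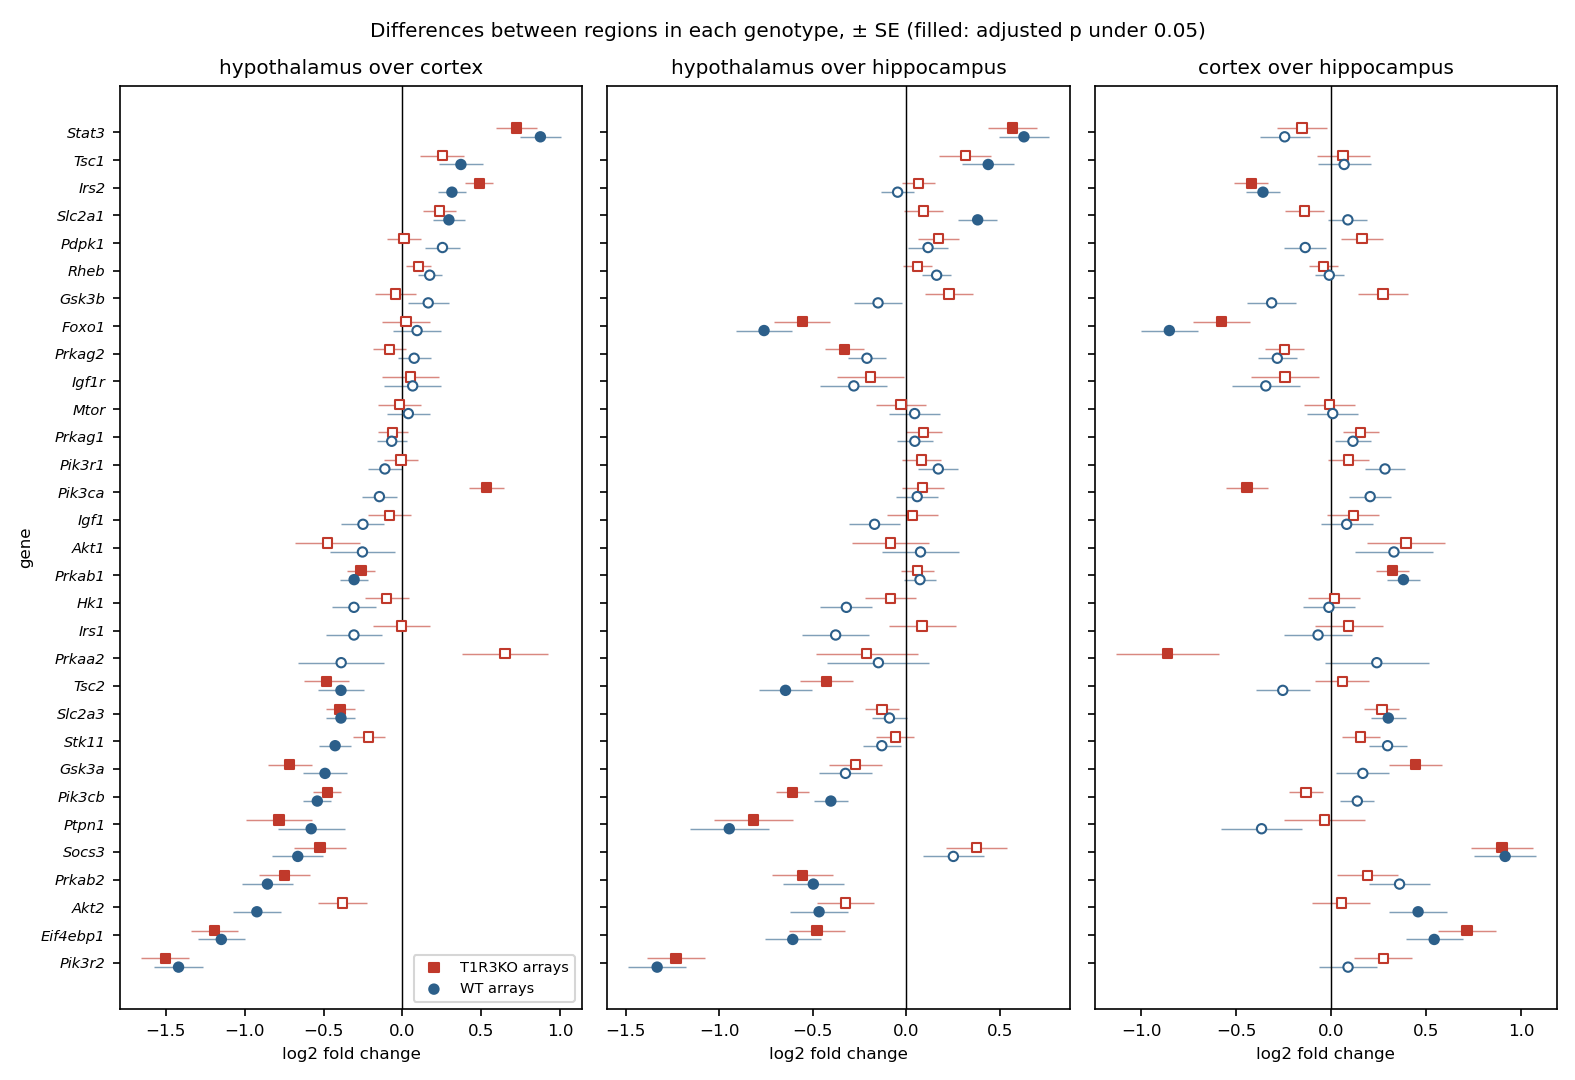
Log2 fold change between regions (hypothalamus over cortex, hypothalamus over hippocampus, cortex over hippocampus) for each of the 31 genes, ± SE, with T1R3KO as squares above and WT as circles below, ordered by the WT difference between hypothalamus and cortex. Filled symbols passed an adjusted p of 0.05, and Pik3r2 and Eif4ebp1 stand at one end and Stat3 at the other in both genotypes.

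Pik3r2, the p85 beta regulatory subunit of PI3K, had the widest gap. In WT it read 8.05, 8.36 and 8.45 in hypothalamus, against 9.73, 9.65 and 9.73 in cortex and 9.55, 9.56 and 9.74 in hippocampus. Every hypothalamic array lay more than 1 log2 unit below every other, and the difference was -1.42 ± 0.15 from cortex (adjusted p = 1.4e-06) and -1.33 ± 0.15 from hippocampus (3.3e-06). On the T1R3KO arrays the differences were -1.50 and -1.23, and the second probe of the gene gave -1.40 and -1.18 in WT. Pik3cb was also lower in WT hypothalamus than in cortex, at -0.54 (adjusted p = 0.00012). Akt2 was not detected on any WT hypothalamus or WT hippocampus array and on 2 of 3 WT cortex arrays. Its mean level in WT cortex was 6.19, against 5.27 in WT hypothalamus (adjusted p = 0.00012) and 5.74 in WT hippocampus (0.048). With the undetected groups raised to the lowest detected level, WT cortex was 1.31-fold and 1.18-fold higher in that order. The WT cortex mean includes an undetected array at its measured value, so these are not strict lower bounds.

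Eif4ebp1 encodes 4E-BP1, which binds eIF4E and blocks cap-dependent translation until mTOR phosphorylates it. In WT it read 7.96, 7.64 and 8.04 in hypothalamus, against 9.001, 9.12 and 8.97 in cortex and 8.60, 8.38 and 8.48 in hippocampus. The 3 regions did not overlap, with cortex highest and hypothalamus lowest. The difference was -1.15 ± 0.15 between hypothalamus and cortex (adjusted p = 1.1e-05), -0.61 between hypothalamus and hippocampus (0.0042) and 0.54 ± 0.15 between cortex and hippocampus (0.019). On T1R3KO arrays the differences were -1.19, -0.48 and 0.72, all called. The first Tsc2 probe was lower in WT hypothalamus too, by -0.39 against cortex (adjusted p = 0.033) and by -0.64 against hippocampus (0.0018), and the second probe gave -0.61 and -0.70. Tsc1 ran the other way. In WT it read 6.22, 6.25 and 6.57 in hypothalamus, against 6.23, 5.91 and 5.79 in cortex and 5.67, 5.95 and 6.10 in hippocampus. Hypothalamus overlapped cortex through WT cortex replicate 1 and did not overlap hippocampus. The difference was 0.37 ± 0.14 from cortex (adjusted p = 0.037) and 0.44 ± 0.14 from hippocampus (0.019). Tsc1 is dim, detected on 3, 1 and 2 WT arrays of hypothalamus, cortex and hippocampus, and without the 3 cortex arrays high in markers its difference from cortex was 0.34 (adjusted p = 0.112), while without WT hippocampus replicate 1 its difference from hippocampus was 0.32 (0.0965).

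Of the 31 genes, Stat3 had the largest excess in hypothalamus. In WT it read 11.05, 11.16 and 11.28 there, against 10.37, 10.20 and 10.30 in cortex and 10.46, 10.58 and 10.57 in hippocampus. No array of the other 2 regions reached the hypothalamic range, and the difference was 0.87 ± 0.13 from cortex (adjusted p = 4.6e-05) and 0.63 ± 0.13 from hippocampus (0.0011). On T1R3KO arrays the differences were 0.72 and 0.57. Of its other 2 probes, 1 gave 0.67 between WT hypothalamus and cortex (adjusted p = 0.0059) and the other 0.02 (0.93), so that the probes disagreed. Slc2a1 was 0.29 higher in WT hypothalamus than in cortex (adjusted p = 0.027) and 0.38 higher than in hippocampus (0.0072). Slc2a3 was lower in hypothalamus than in cortex, at -0.39 (0.0024).

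Foxo1 was highest in hippocampus. In WT it read 8.25, 8.23 and 8.13 in hypothalamus, 8.03, 8.30 and 8.01 in cortex and 8.90, 8.93 and 9.07 in hippocampus. Hypothalamus and cortex overlapped, and both lay below hippocampus, by -0.76 (adjusted p = 0.00072) and by -0.85 ± 0.15 (0.00087). On T1R3KO arrays the same differences were -0.56 and -0.58. Ptpn1, the phosphatase PTP1B that switches the insulin and leptin receptors off, read 8.59, 8.84 and 8.91 in WT hypothalamus, against 9.27, 9.28 and 9.53 in WT cortex and 9.70, 9.63 and 9.85 in WT hippocampus. The hypothalamic arrays lay below all others, at -0.95 ± 0.21 from hippocampus (adjusted p = 0.0019) and -0.58 from cortex (0.032), whereas cortex and hippocampus did not differ past the threshold (-0.37 ± 0.21, adjusted p = 0.26). T1R3KO cortex was spread widely for Ptpn1, at 9.005, 9.58 and 10.23.

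Socs3, a cytokine-induced inhibitor of the same receptors, was highest in cortex. In WT it read 6.66, 6.71 and 7.06 in hypothalamus, 7.38, 7.50 and 7.54 in cortex and 6.48, 6.26 and 6.93 in hippocampus. The cortical arrays lay above all others, by 0.92 ± 0.16 over hippocampus (adjusted p = 0.00091), and the hypothalamus lay below cortex by -0.66 (0.0031). On T1R3KO arrays the same differences were 0.90 and -0.52. Among the AMPK genes, Prkab2 was lower in WT hypothalamus than in cortex by -0.86 ± 0.16 (0.00039), Stk11 by -0.43 (0.0023) and Prkab1 by -0.31 (0.0085). The kinase Gsk3a was lower by -0.49 (0.0086), while Irs2 was higher by 0.31 (0.0082).

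**Figure D4:**
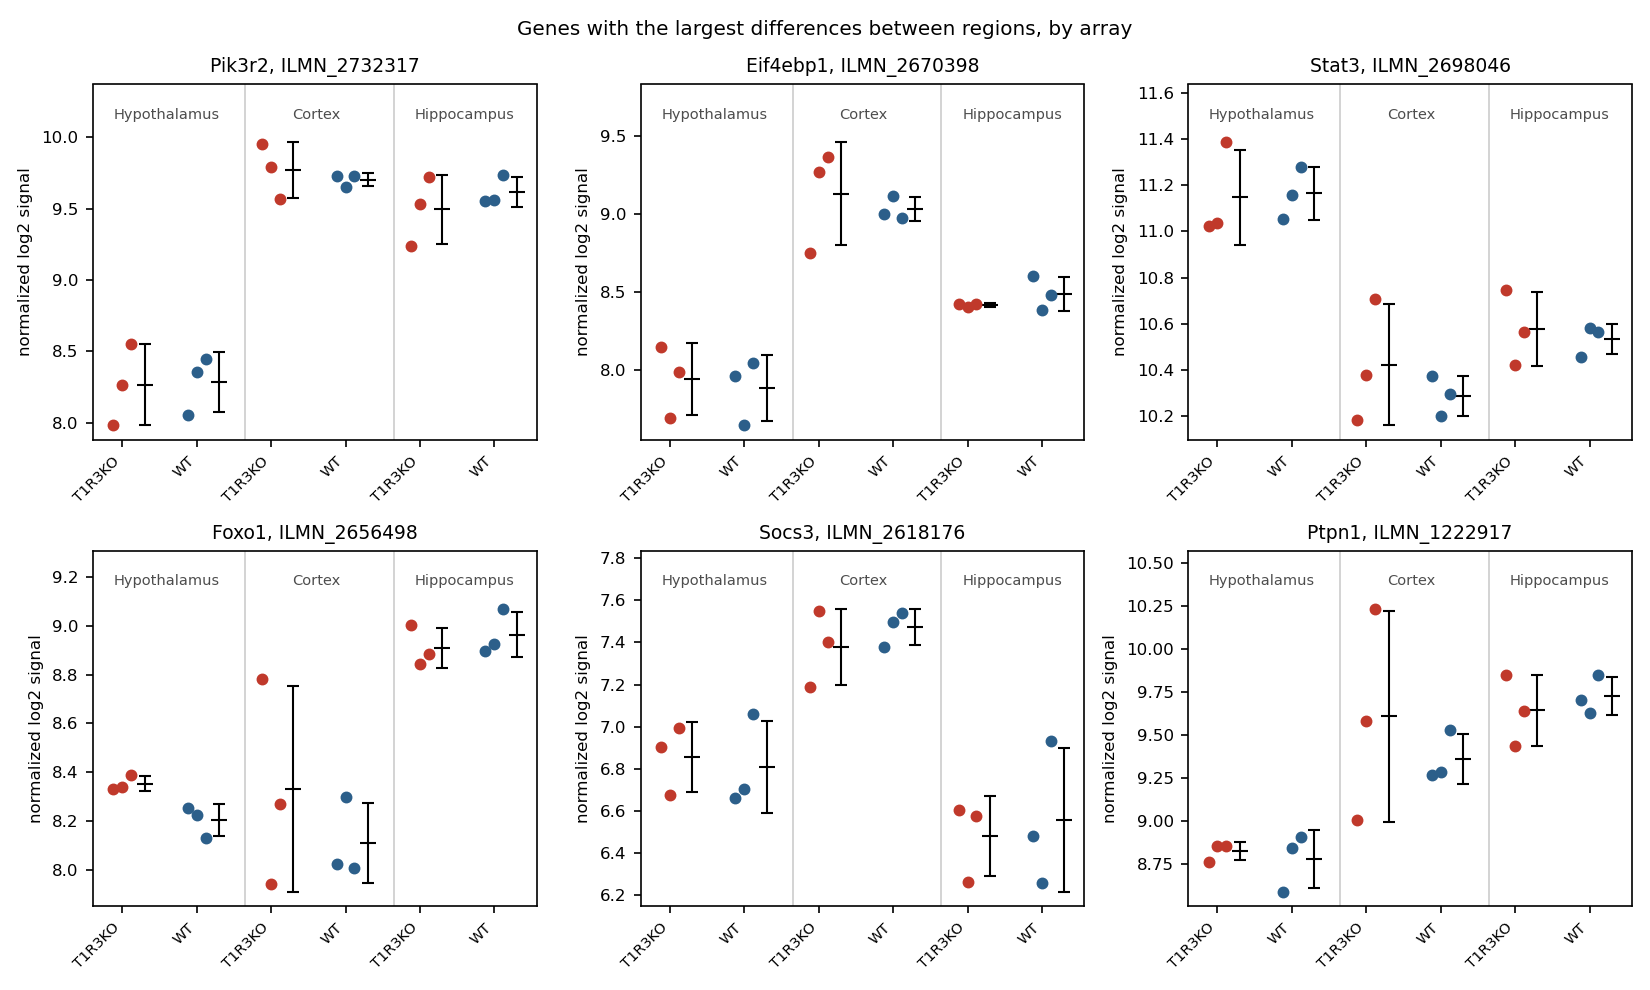
Normalized log2 signal on each array for the 6 genes at the ends of the regional comparisons apart from Tsc1, by region, T1R3KO in red and WT in blue, with bars for mean ± SD (n = 3). Pik3r2 and Eif4ebp1 are lowest in hypothalamus and Stat3 highest there in both genotypes, Foxo1 is highest in hippocampus and Socs3 in cortex.

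The T1R3KO animals, which share no array with the WT contrasts, were compared in the same way. Within T1R3KO, 16 of the 31 genes differed between regions, against 53.9% of all probes. Between T1R3KO hypothalamus and T1R3KO cortex 13 genes were called, 3 higher and 10 lower in hypothalamus, against 47.6% of all probes (3864 of 15476 probes higher and 22.6% lower). Between hypothalamus and hippocampus 9 were called, 1 higher and 8 lower, against 41.9% (22.1% and 19.8%). With the replicate number as a block 10 were called there, Socs3 in addition (adjusted p = 0.0384). Between cortex and hippocampus 8 were called, 4 in each direction, against 18.4% (9.19% each way). Of the genes called in WT, 12 of 16, 8 of 11 and 5 of 7 were called in the same direction in T1R3KO, which is 75.0%, 72.7% and 71.4%. Of all probes called in WT the like shares were 75.9%, 77.4% and 64.3%, so the members stood near the background. In all, 37.6%, 32.5% and 11.9% of all probes were called in both genotypes. The 16, 11 and 7 genes had the same sign in both, as did 97.4%, 98.2% and 97.3% of all probes called in WT. Pik3ca and Prkaa2, the genes called between the genotypes in cortex, were called between regions in T1R3KO and not in WT, and whether the genotypes differ there is the test between the regions' genotype effects, which called neither. In T1R3KO, Pik3ca was higher in hypothalamus than in cortex by 0.53 (adjusted p = 0.001) and lower in cortex than in hippocampus by -0.44 (0.011), whereas in WT the differences were -0.15 (0.3) and 0.21 (0.23). Prkaa2 was lower in T1R3KO cortex than in T1R3KO hippocampus by -0.86 (adjusted p = 0.038), whereas the WT difference was 0.24 (0.6).

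A wider list of 91 other genes of these pathways, of which 66 were measured, was read in the same way. In each region 0 of the 66 were called between the genotypes by limma. Of all probes 1.6% were called in hypothalamus, 2.69% in cortex and 1.25% in hippocampus. Limma's unadjusted p was under 0.05 for 11 of the 66 in hypothalamus, 14 in cortex and 4 in hippocampus. The shares of all probes were 10.4%, 15.2% and 10.2% in the same order. Over the mean of the regions 4 of 66 were called (6.06%), near the 6.02% of all probes. Igf2r, which clears IGF-2 from the cell surface, rose by 0.21 (adjusted p = 0.049). The IGF-binding protein Igfbp4 fell by 0.31 (0.045), the receptor adaptor Grb14 fell by 0.28 (0.016) and the docking protein Gab1 fell by 0.22 (0.038). A second probe of Igfbp4 gave -0.44 (adjusted p = 0.0397), whereas the second probes of Igf2r and Grb14 gave 0.04 (0.806) and 0.05 (0.835).

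Between regions the largest single gaps of this wider list were wider than those of the 31 genes. Within WT 40 of the 66 differed by the F test, against 54.7% of all probes. Between hypothalamus and cortex 36 were called (14 higher and 22 lower), against 49.5%, between hypothalamus and hippocampus 31 (14 and 17), against 42.0%, and between cortex and hippocampus 14 (7 and 7), against 18.6%. Camkk2, a calcium-dependent kinase that activates AMPK, was lower in WT hypothalamus than in WT cortex by -2.81 ± 0.14 (adjusted p = 1.4e-10), and its second probe gave -2.94. The adaptor Grb10, an inhibitor of the insulin receptor, was higher in hypothalamus than in hippocampus by 2.22 ± 0.13 (1.5e-09). Igfbp4 was lower there by -2.32 ± 0.15 (4.8e-09). Igfbp6, an IGF-2 binding protein, was lower in hypothalamus than in cortex by -3.71 ± 0.40 (1.3e-06), with 2 of 3 WT hypothalamus arrays detected.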

How the data were processed

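Per the labels, total RNA was amplified, biotin-labelled and hybridised to Illumina bead arrays, 1 array per sample. The deposited intensity values are linear bead signals without normalization between arrays, each with a detection p-value deposited beside it. The submitters' processing notes name GenomeStudio 2011.1 and nothing used here states how background was treated. A z score was also deposited, the scaled log signal of each array to within 5e-10, used only as an alternative. Of 25697 probes, 23978 had 1 gene symbol in the platform annotation, 0 several and 1719 none. Symbols were updated through RefSeq names of GRCm38.p6 (14547 of 14554 named probes tested). No source used here gives a slide or scan date, so no batch could be compared.

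Signals were processed with neqc in limma 3.58.1 (R 4.3.3): background correction from the detection p-values, an offset of 16, quantile normalization and log2. The 15476 probes with detection p under 0.05 on at least 3 of 18 arrays were tested in 1 limma fit of 6 group means (12 residual degrees of freedom, eBayes), with Benjamini-Hochberg adjustment over all of them and a threshold of 0.05. All adjusted p-values are from limma, and values after ± are SE where a fold change is given. Where a gene was undetected in a group, its own value or, where higher, the lowest value among detected probes was taken on each array. The average was set against the brighter group's measured mean, and only that fold is given. It is a strict lower bound only where every array of the brighter group was detected. Levels of different probes were not compared. Precision is limited by the number of arrays. Figures were drawn with matplotlib 3.10.9 (Python 3.11.15).

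The genes and lists were chosen with earlier results of these data known. Array values are given for genes called between the genotypes, for both Tsc2 probes and for the 2 highest and 2 lowest genes of each WT regional contrast. From the wider list, genes called between the genotypes and the 2 of largest fold per regional contrast are named. The other array values, second probes and further regional values were chosen after they had been seen. The 3 replicate numbers occur in every group. Of 45 pairs of same-numbered arrays in different groups, 19 had correlated deviations above 0.1 (median 0.070, from -0.278 to 0.367), against 12 of 90 pairs with different numbers (median -0.032). No T1R3KO and WT groups of a region had all 3 same-numbered pairs above 0.1, so the numbers were not taken to pair the genotypes. Of the regional comparisons only T1R3KO hypothalamus against T1R3KO hippocampus had, and there the blocked count is given beside the result. The alternatives were another background correction and offset, 2 filters, the deposited scores, the 6 arrays of a region alone, array weights, the replicate block, and leaving out each array or the 3 marked cortex arrays.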

Additional observations from a re-analysis of the deposited data

How the results depend on the processing

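Of 608 values of the named genes under the alternatives, 555 kept their direction and their side of the threshold, 32 lost it, 21 gained it and 0 turned round. In cortex, 1 gene was called without the filter (Pik3ca) and 0 with the 6 cortex arrays alone. In hippocampus, 0 were called with its 6 arrays alone. Both region-alone fits have fewer residual degrees of freedom. In hypothalamus, 1 gene (Tsc2) was called with quantile normalization without background correction, an offset of 50, probes detected on all arrays, the deposited scores, array weights and the replicate block. Over the mean of the regions, 4 genes (Pik3ca, Prkaa2, Prkab1 and Tsc2) were called with array weights. The fit without the 3 cortex arrays high in markers leaves 1 array in T1R3KO cortex, so its count is not given here. The cause was not tested.

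Leaving out 1 array at a time gave 1 to 3 genes in cortex, 1 in hippocampus, 0 to 1 in hypothalamus, 2 to 4 over the mean of the regions and 0 to 2 in the test between regions. The 4 and the 2 came without T1R3KO cortex replicate 1. In hypothalamus the 1 was Tsc2, without replicate 1 or 2 of T1R3KO cortex, replicate 1 or 3 of T1R3KO hippocampus, or replicate 1 of T1R3KO hypothalamus. Within WT the regional F test gave 15 to 20 genes, hypothalamus against cortex 13 to 17, hypothalamus against hippocampus 9 to 12, and cortex against hippocampus 4 to 11, the 4 without WT hippocampus replicate 2 or 3 and the 11 without T1R3KO cortex replicate 3.

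Tsc2 and Prkab1 over the mean of the regions kept their calls in all 26 alternatives, with adjusted p up to 0.00055 and 0.0211. Tsc2 in hippocampus lost its call only with the 6 hippocampus arrays alone (adjusted p = 0.101), and Pik3ca in cortex only with the 6 cortex arrays alone (0.0944). Prkaa2 in cortex lost its call in 17 of 27, with adjusted p from 0.00011 to 0.324.

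With the replicate number as a block, 1 gene was called in hypothalamus (Tsc2), 3 in cortex (Pik3ca, Prkaa2 and Tsc2), 1 in hippocampus and 2 over the mean of the regions. Over all probes the block gave 302, 509, 234 and 1034 calls in the same order. With 3 arrays a group, small differences of dim probes such as Akt1, Akt2, Tsc1 and Irs1 were limited by their signal over background.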
